A study of Mus musculus with 16 samples.

Results

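Ubd, Clic5 and Il12rb1 were described across bone marrow-derived dendritic cells (BMDCs) of 4 genotypes, untreated or stimulated with c-di-GMP, the cyclic dinucleotide of bacteria that activates STING. The 3 genes, of 23356 genes in the table, were selected on measured values: they had the largest falls from treated wild-type to treated Irf1-/- BMDCs. The values of that contrast are therefore a description of the choice, and nothing is supported with them. All BMDCs came from C57BL/6 background mice, sex-matched and 6 to 12 weeks old, and were grown from bone marrow, depleted of red cells, with GM-CSF and IL-4. The genotypes were wild type, Tmem173-/- (lacking STING), Irf1-/- and a double knockout labelled Irf3/7-/- (Irf3 and Irf7), each without treatment or with c-di-GMP for 18 h. The dose is 25 µg/ml in the labels, while the study's legends give a higher one. The table names the second Tmem173-/- column with GDP and not with cdg as in the other genotypes, and it was read as the c-di-GMP group because no other treated column of that genotype is listed. The values of the targeted genes did not by themselves bear out every label. Irf7 had 4.97 FPKM (against 687 FPKM in wild type) in the treated group labelled Irf3/7-/-. Irf3, however, had 20.2 FPKM (14.8 to 25.7) there, not below the 15.8 FPKM (11.6 to 20) of treated wild type. Irf1 had 116 FPKM (82.8 to 149) in treated Irf1-/- and 245 FPKM (176 to 314) in treated wild-type BMDCs. It is not known which exons these fragments came from, so such values do not show whether a working gene was left. The knockout names are therefore used below as the labels give them. The knockouts were those of whole mice and not of dendritic cells alone, so every cell type of a culture carried them. There are 16 labelled samples (8 conditions with 2 each), but the authors combined the samples of a condition into 1 value before deposition. Replicates can therefore not be compared, no replicate test was run, and every error below is the authors' own interval of the pooled value.

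STING binds cyclic dinucleotides in the cytosol and signals through kinases to transcription factors of the interferon regulatory factor (IRF) family and to NF-κB. IRF3 and IRF7 are best known for switching on type I interferon genes, and IRF1 is itself induced by interferons and binds IRF elements in immune genes, among them genes of antigen presentation. Ubd encodes FAT10, a ubiquitin-like modifier that is conjugated to proteins and sends them to the proteasome. Clic5 encodes a chloride intracellular channel family protein that is linked to the actin cytoskeleton through ezrin-type proteins and is best known from hair cells of the inner ear and from podocytes of the kidney. Il12rb1 encodes the receptor chain that IL-12 and IL-23 receptors have in common, and it is best known from T and NK cells.

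Ubd lies on chromosome 17 from 37193892 to 37196101, Clic5 on chromosome 17 from 44188572 to 44280168, and Il12rb1 on chromosome 8 from 70808449 to 70821423. No other gene of the table overlapped any of the 3 loci. The submitters' processing notes name the build mm9, but the loci fit GRCm38: 21283 of 21522 genes matched by symbol (98.9%) overlapped the RefSeq gene of that name in GRCm38.p6. In RefSeq, Clic5 also has an earlier start at 44134762, 53.8 kb before the start in the table. The RefSeq promoters of GRCm38.p6 were read for the members, and 2 of 3 had an entry, for Ubd and for Clic5 from the start that the table uses. They are shown because both genes rose with c-di-GMP and were low in Irf1-/- BMDCs. Each is the 250 bases before the transcription start, on the + strand, chr17:37193642-37193891 for Ubd and chr17:44188322-44188571 for Clic5, in lower case with matches to the motifs searched in capitals.
Ubd: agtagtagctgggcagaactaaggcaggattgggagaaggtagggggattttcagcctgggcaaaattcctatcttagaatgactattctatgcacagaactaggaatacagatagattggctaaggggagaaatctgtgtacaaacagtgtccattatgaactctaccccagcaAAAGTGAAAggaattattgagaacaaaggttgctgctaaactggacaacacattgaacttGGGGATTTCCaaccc
Clic5: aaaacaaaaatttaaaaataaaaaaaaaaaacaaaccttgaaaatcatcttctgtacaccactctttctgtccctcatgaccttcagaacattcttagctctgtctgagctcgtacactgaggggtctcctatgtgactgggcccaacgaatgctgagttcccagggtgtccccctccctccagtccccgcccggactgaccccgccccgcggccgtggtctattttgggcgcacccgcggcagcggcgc

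The motifs searched on both strands were an IRF repeat (GAAANNGAA) and the kappaB site of NF-κB. The window of Ubd held 1 kappaB match, from -15 to -6 relative to the start, and no match to the IRF repeat. The share of all 32851 promoter windows of the same length with a match was 7.13% for the IRF repeat and 7.25% for the kappaB site. A shorter form of the repeat (AAANNGAAA), chosen after the sequences had been read, matched the Ubd window from -75 to -67 and 9.37% of all windows. The Clic5 window held none of these 3 motifs. None of the matches overlapped another, and a match is a description of the letters and not of binding.

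The values are FPKM (fragment counts corrected for transcript length and library size), so that levels of different genes can be compared per length. FPKM do not give the depth of a library. For the 3 members, however, all 16 interval bounds were whole multiples of a single step, 0.0424 FPKM for Ubd, 0.00677 FPKM for Clic5 and 0.0138 FPKM for Il12rb1. The step was read as the worth of 1 scaled fragment, so 3 steps (0.127, 0.0203 and 0.0415 FPKM) were taken as the level under which a value was not distinguished from 0. Among 9279 genes with a highest level of 1 to 50 FPKM, 1444 (15.6%) had such a step. The intervals are the error that Cuffdiff estimated for the pooled value. How much of the spread between cultures they hold cannot be read from the deposited values, and the floor does not cover that spread.

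Ubd was the most strongly expressed member in treated wild-type BMDCs and was nearly undetected without STING. Untreated wild-type BMDCs had 5.27 FPKM of Ubd (3.52 to 6.96) and treated wild-type BMDCs 137 FPKM (101 to 173). Irf3/7-/- BMDCs had 3.54 FPKM (2.29 to 4.75) untreated and 15.3 FPKM (10.9 to 19.7) treated. Irf1-/- BMDCs had 0.147 FPKM (0 to 0.255) untreated and 0.895 FPKM (0.424 to 1.36) treated. In Tmem173-/- BMDCs both values lay under the floor of 0.127 FPKM, at 0.0402 FPKM (0 to 0.0424) untreated and 0.0186 FPKM (0 to 0.0849) treated. From the highest, the order was treated wild type, treated Irf3/7-/-, untreated wild type, untreated Irf3/7-/-, treated Irf1-/-, untreated Irf1-/- and the Tmem173-/- conditions. The intervals of untreated wild type and untreated Irf3/7-/- overlapped, as did those of untreated Irf1-/- and untreated Tmem173-/- and those of both Tmem173-/- conditions. All other neighbours in that order were apart.

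Clic5 was below 1 FPKM in every condition except the treated wild-type and treated Irf3/7-/- BMDCs. It had 0.219 FPKM (0.122 to 0.312) in untreated and 15.6 FPKM (12.1 to 19.1) in treated wild-type BMDCs. The Irf3/7-/- BMDCs had 0.216 FPKM (0.122 to 0.305) untreated and 8.30 FPKM (6.42 to 10.2) treated. Treated Irf1-/- BMDCs had 0.0436 FPKM (0.00677 to 0.0745), a value of 6.43 steps. The other 3 conditions lay under the floor of 0.0203 FPKM: untreated Irf1-/- at 0.0167 FPKM (0 to 0.0339), treated Tmem173-/- at 0.0144 FPKM (0 to 0.0339) and untreated Tmem173-/- at 0.00276 FPKM (0 to 0.0135). Treated wild type stood apart from treated Irf3/7-/-, and both from all other conditions. Untreated wild type and untreated Irf3/7-/- overlapped, and these in turn were above the Irf1-/- and Tmem173-/- conditions, whose intervals overlapped from neighbour to neighbour.

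Il12rb1 had the highest untreated wild-type level of the 3. Its level was 9.62 FPKM (7.41 to 11.8) in untreated and 24.3 FPKM (18.7 to 30.0) in treated wild-type BMDCs. In Irf3/7-/- BMDCs it was 9.43 FPKM (7.26 to 11.6) untreated and 32.2 FPKM (25.0 to 39.5) treated. The Irf1-/- BMDCs had 0.0886 FPKM (0.0138 to 0.152) untreated and 0.144 FPKM (0.0554 to 0.235) treated, the lowest values of the 8. Tmem173-/- BMDCs had 0.212 FPKM (0.0969 to 0.318) untreated and 0.281 FPKM (0.138 to 0.415) treated. Treated Irf3/7-/- and treated wild type overlapped, as did both untreated conditions of these genotypes, and all 4 were apart from the Irf1-/- and Tmem173-/- conditions. Within the 4 low conditions each neighbour in the order overlapped the next.

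**Figure D1:**
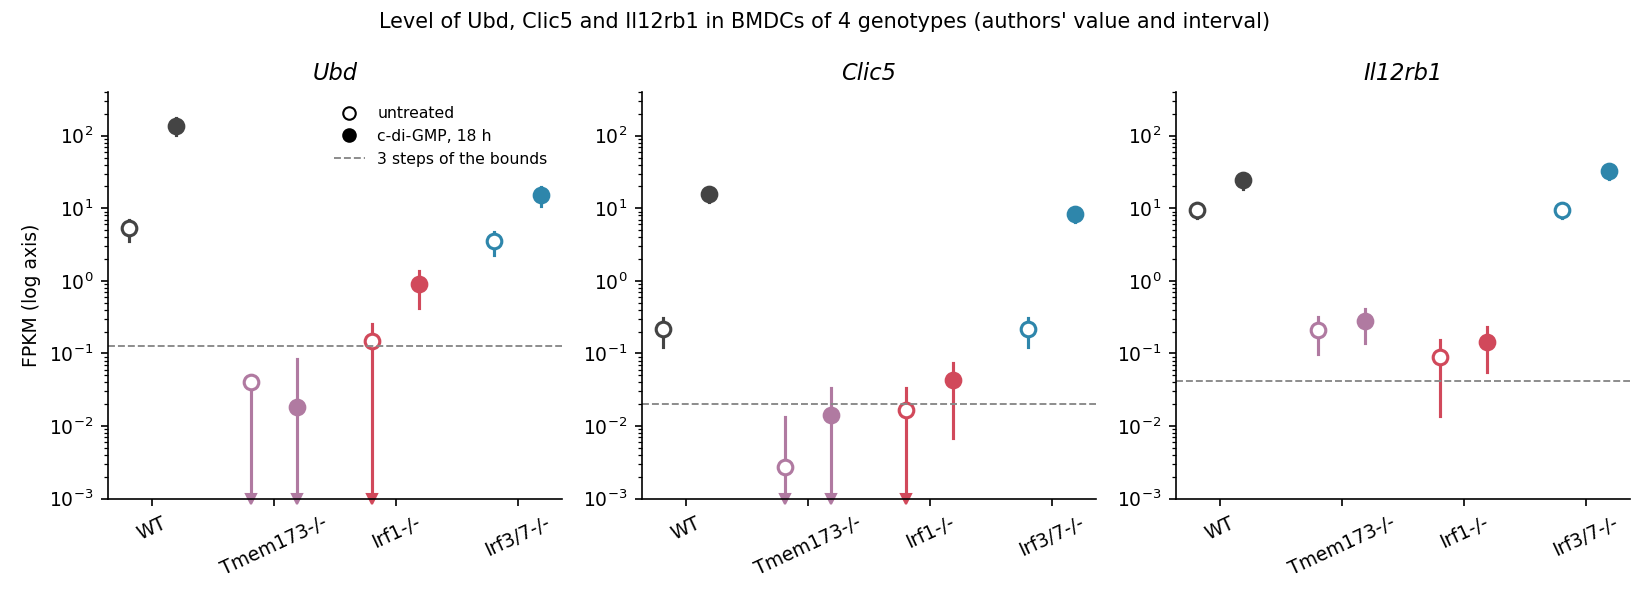
Level of each gene in FPKM on a log axis, by genotype, untreated (open circles) or after c-di-GMP (filled circles). Vertical lines are the authors' intervals, a triangle marks a lower bound of 0, and the dashed line is 3 steps of the bounds. Wild-type and Irf3/7-/- values of Ubd and Il12rb1 lie above those of Irf1-/- and Tmem173-/- BMDCs, and Clic5 exceeds 1 FPKM in treated wild-type (15.6) and treated Irf3/7-/- (8.30) BMDCs alone.

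The first comparison asked how each gene responded to c-di-GMP within a genotype. Genes were called when the fold change of FPKM + 0.1 was above 2, the intervals did not overlap and at least 1 FPKM was reached in one of the conditions compared. In wild-type BMDCs all 3 members were called higher, with log2 differences of 4.68 for Ubd, 5.62 for Clic5 and 1.33 for Il12rb1. Of 11201 genes tested 10.5% were called higher and 9.96% lower, and the treated wild-type value is one of those that chose the members. Clic5 ranked 43rd, Ubd 67th and Il12rb1 822nd from the largest rise.

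In the BMDCs labelled Irf3/7-/-, whose values took no part in the choice and whose treated Irf3 level was not low, all 3 members were again called higher, against 10.2% of 11283 genes. The log2 differences were 2.08 for Ubd, 4.73 for Clic5 and 1.76 for Il12rb1. As a ratio of FPKM, the response of Ubd was 26.0 in wild-type and 4.32 in Irf3/7-/- BMDCs. The ratios that the interval bounds allow ran from 14.5 to 49.1 in wild type and from 2.29 to 8.59 in Irf3/7-/-, and so did not overlap. For Clic5 the response was 71.3-fold (38.7 to 157) in wild type and 38.5-fold (21.0 to 83.4) in Irf3/7-/- BMDCs, and for Il12rb1 it was 2.53-fold (1.58 to 4.05) and 3.42-fold (2.15 to 5.44). These ranges overlapped, which does not show that the responses were alike, and the difference between genotypes was not tested for any of the 3.

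**Figure D2:**
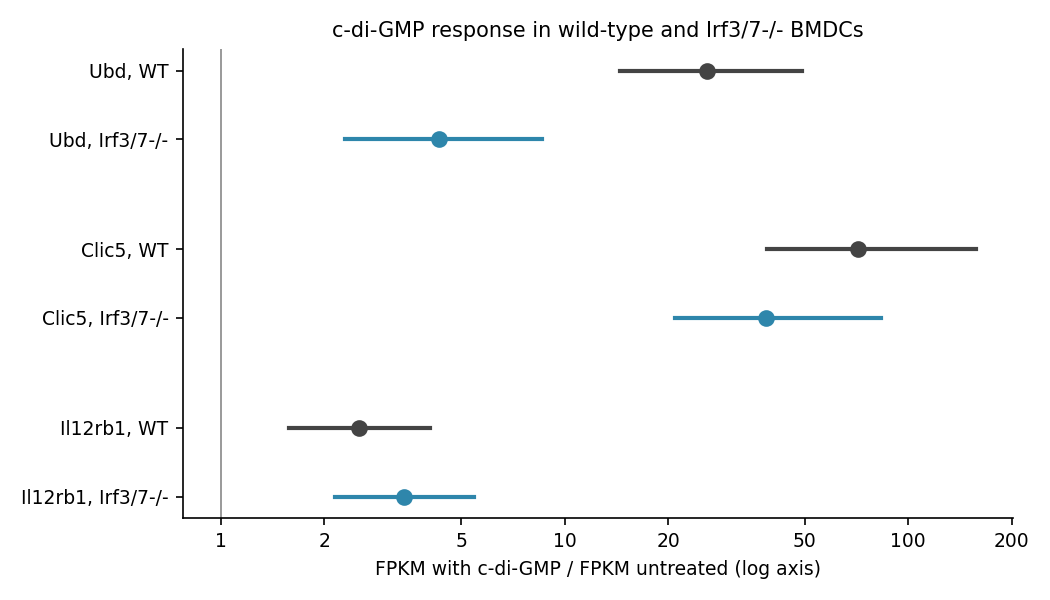
Ratio of FPKM with c-di-GMP to FPKM untreated, on a log axis, in wild-type and Irf3/7-/- BMDCs. Points are the ratio of the authors' values and lines run from the lowest to the highest ratio that their intervals allow. The lines of Ubd are apart (14.5 to 49.1 and 2.29 to 8.59) and those of Clic5 and Il12rb1 overlap.

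In Irf1-/- BMDCs no member reached 1 FPKM in either condition, so none was tested, while 9.67% of 11164 genes were called higher. Ubd still rose there from 0.147 to 0.895 FPKM with intervals that did not overlap, a log2 difference of 2.01, and the lower bound of the treated value was 1.67 times the upper bound of the untreated value. The intervals of Clic5 and of Il12rb1 overlapped, with log2 differences of 0.30 and 0.37. The added 0.1 FPKM is of the size of these values or larger, which shrinks such differences. As ratios of FPKM, the responses were 2.61 (0.2 to unbounded) for Clic5 and 1.63 (0.364 to 17) for Il12rb1. Neither a response nor its absence can be read from them. In Tmem173-/- BMDCs no member was tested either, and 0.0552% of 10867 genes were called in either direction. Il12rb1, which was above its floor there, had 0.212 FPKM untreated and 0.281 FPKM treated, with overlapping intervals.

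The second comparison set the treated knockouts against treated wild-type BMDCs. The contrast that chose the members, Irf1-/- against wild type, gave log2 differences of -7.11 for Ubd, -6.77 for Clic5 and -6.65 for Il12rb1, where 4.91% of 11079 genes were called lower. Just outside lay Ptgs2 (cyclooxygenase-2, the inducible enzyme of prostaglandin synthesis) and Gm15056, both at -6.61, among 284 called genes with at least 10 FPKM in one of these conditions. A further 10 genes had larger log2 falls than Il12rb1, but the intervals of all 10 overlapped. The order depends on the constant added to the FPKM: with 1 FPKM in place of 0.1, Ubd stayed first, Il12rb1 ranked 8th and Clic5 12th.

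The treated wild-type value is one of those that chose the members, which favoured lower values in both contrasts that follow. In treated Tmem173-/- BMDCs all 3 members were called lower than in treated wild type, against 13.5% of 11318 genes. Ubd and Clic5 were under their floors there, and Il12rb1 was at 1.15% of the wild-type value. The lower bound of the wild-type value was 793 times the floor for Ubd, and 356 and 45.1 times the upper bound in Tmem173-/- BMDCs for Clic5 and Il12rb1. These values rest on the reading of the GDP column as c-di-GMP. Treated BMDCs labelled Irf3/7-/- split the 3 genes. Ubd was called lower, with a log2 difference of -3.16 and 11.2% of the wild-type FPKM, against 2.69% of 11209 genes called lower. Clic5 was at 53.3% of the wild-type FPKM with intervals apart, but its log2 difference of -0.90 did not reach the 2-fold threshold. Il12rb1 was at 132% with overlapping intervals and was not called, where 4.61% of genes were called higher.

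The third comparison used the untreated BMDCs, which took no part in the choice of the members. Clic5 was below 1 FPKM in all of them and was not tested. In untreated Irf1-/- BMDCs Ubd and Il12rb1 were called lower than in untreated wild type, against 3.52% of 11017 genes. Ubd had 2.79% of the wild-type FPKM, a log2 difference of -4.44 and the 34th largest fall. Il12rb1 had 0.921%, a log2 difference of -5.69 and the 20th largest fall. In untreated Tmem173-/- BMDCs the same 2 members were called lower, with log2 differences of -5.26 and -4.96, against 5.95% of 11101 genes. Both of these contrasts share the untreated wild-type value. In untreated Irf3/7-/- BMDCs neither was called, where 2.04% of 11004 genes were called in either direction: Ubd was at 67.2% and Il12rb1 at 98.0% of the wild-type FPKM, with overlapping intervals. Clic5, though not tested, had intervals apart from wild type in untreated Irf1-/- and untreated Tmem173-/- BMDCs, with the lower wild-type bound 3.6 times the upper bound of Irf1-/- and 6 times the floor, under which the bound of Tmem173-/- lay.

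Compared directly at the same treatment, the members were lower in Irf1-/- BMDCs than in those labelled Irf3/7-/-. After c-di-GMP the log2 differences were -3.95 for Ubd, -5.87 for Clic5 and -7.05 for Il12rb1, all called lower, against 6.62% of 11235 genes. The treated Irf1-/- value is one of those that chose the members, so low values were favoured in this treated contrast. Without treatment Ubd (-3.88) and Il12rb1 (-5.66) were called lower, against 3.79% of 11059 genes, and Clic5 was not tested. Of the 3, Ubd had the smallest treated difference and Il12rb1 the largest.

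Cells of other types were followed with marker lists, since the cultures were not stated to be sorted and Il12rb1 is known from T and NK cells. All 8 dendritic cell markers were above 1 FPKM in every condition, and their summed level, most of it Cd74, lay between 4740 and 7820 FPKM. Single markers moved: H2-Ab1 was called lower in Irf1-/- than in wild-type BMDCs, with 278 against 650 FPKM untreated and 331 against 890 FPKM treated. In treated Tmem173-/- against treated wild-type BMDCs, Ccr7, Cd83 and Batf3 were called lower and Itgax higher. The 8 NK cell markers summed to 691 and 676 FPKM in untreated and treated wild-type BMDCs and to 711 and 2190 FPKM in Irf3/7-/- BMDCs, nearly all of it Gzma and Gzmb. In Irf1-/- BMDCs they summed to 19.2 and 28.6 FPKM, and in Tmem173-/- BMDCs to 5.33 and 4.40 FPKM. The 7 T cell markers summed to 52.9 and 37.9 FPKM in wild type, 70.3 and 120 FPKM in Irf3/7-/-, 5.50 and 10.3 FPKM in Irf1-/- and 1.49 and 1.64 FPKM in Tmem173-/- BMDCs. Of the defining markers, Gzma was listed at 0 in both Tmem173-/- conditions and had 5.55 and 8.40 FPKM in Irf1-/- BMDCs, against 349 and 329 FPKM in wild type. Ncr1 was listed at 0 in both Irf1-/- conditions but had only 0.193 and 0.290 FPKM in wild type. Cd3e had 9.18 FPKM in untreated wild-type and 0.641 FPKM in untreated Irf1-/- BMDCs. Lck, however, had 6.16 FPKM (4.23 to 8.13) in treated Irf1-/- BMDCs, most of the T cell sum there. In treated wild-type BMDCs it had 8.62 FPKM (6.12 to 11.1), and these intervals overlapped. Between these treated conditions, 3 of 6 tested T cell markers were called lower in Irf1-/- BMDCs, beside 4.91% of all genes.

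Both sums were thus low in the same 4 conditions as Il12rb1 and Ubd, and their part in those differences was not tested. Not every marker followed the sums. The NK cell marker Klrd1 was called higher in untreated Tmem173-/- (4.83 FPKM) than in untreated wild-type BMDCs (2.01 FPKM). The T cell marker Lck was not called lower in treated Irf1-/- than in treated wild-type BMDCs. In bulk samples, fewer cells of a type and less RNA per cell cannot be told apart. In the wild-type response, 0 of 7 tested NK and 0 of 7 T cell markers were called higher, and 3 and 1 were called lower, beside 10.5% and 9.96% of all genes. In Irf3/7-/- BMDCs, 4 of 7 NK cell markers were called higher with c-di-GMP, beside 10.2% of all genes, and 2 were called lower, Klrb1c (4.05 to 0.618 FPKM) and Eomes (13.6 to 6.36 FPKM). In treated Irf3/7-/- against treated wild-type BMDCs, 6 of 6 tested NK and 6 of 7 T cell markers were called higher, beside 4.61% of all genes. In Tmem173-/- BMDCs neutrophil markers also stood out, with a summed level of 19100 FPKM untreated and 13800 FPKM treated, against 3910 and 1790 FPKM in wild type; S100a8 and S100a9 made up most of it. In Irf1-/- BMDCs that sum was 2380 and 1360 FPKM. Other lists differed as well. In untreated Tmem173-/- BMDCs macrophage markers summed to 423 FPKM and B cell markers to 10.7 FPKM, against 153 and 4.22 FPKM in untreated wild type. In treated Irf3/7-/- against treated wild-type BMDCs, 5 of 5 basophil and mast cell markers were called higher, beside 4.61% of all genes.

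**Figure D3:**
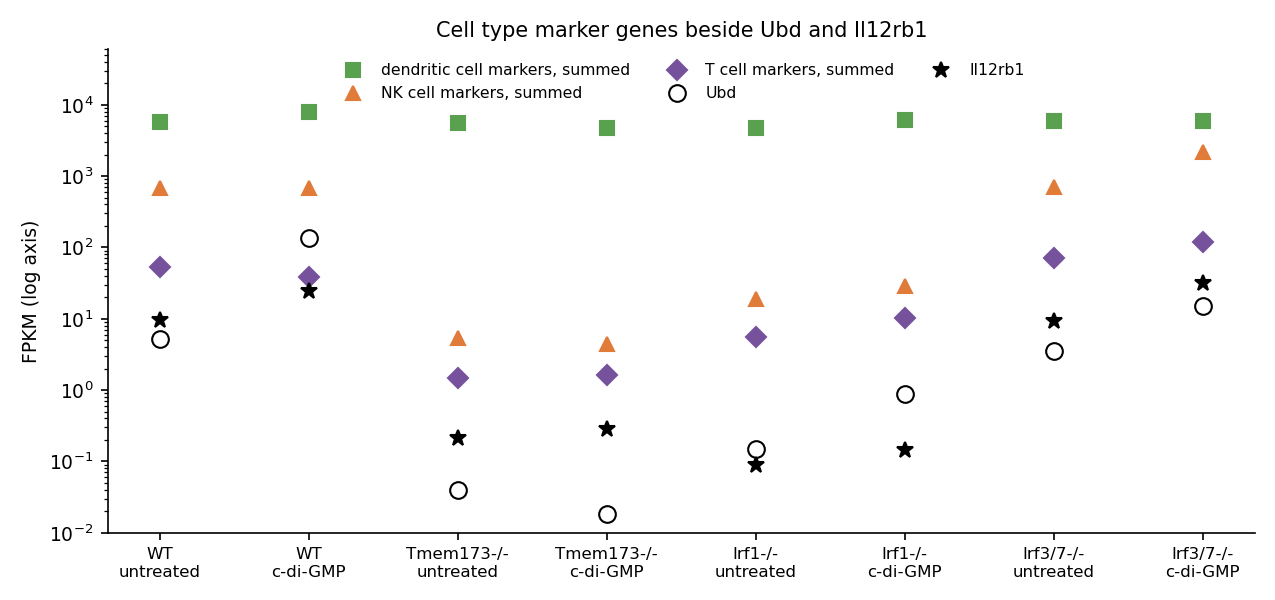
Summed FPKM of dendritic cell, NK cell and T cell markers (coloured symbols) beside the FPKM of Ubd (open circles) and Il12rb1 (stars) in the 8 conditions, on a log axis. The dendritic cell sum stays between 4740 and 7820 FPKM, and the NK cell sum is 4.40 to 28.6 FPKM in Tmem173-/- and Irf1-/- BMDCs and 676 to 2190 FPKM in the others.

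Il12rb1 was then placed beside the other genes of the IL-12 and IL-23 pathway. Among the receptor chains, Il12rb2, the partner of Il12rb1 in the IL-12 receptor, was not low in Irf1-/- BMDCs. It had 56.3 FPKM (42.9 to 69.7) in treated wild-type, 56.1 FPKM (42.4 to 69.8) in treated Irf1-/- and 44.9 FPKM (34.0 to 55.9) in treated Irf3/7-/- BMDCs. Untreated, it had 16.3, 11.7 and 10.5 FPKM in the same order, and 6.85 and 10.3 FPKM in untreated and treated Tmem173-/- BMDCs. Per length, Il12rb2 was thus 2.31 times the level of Il12rb1 in treated wild-type BMDCs, 1.39 times in treated Irf3/7-/- and 389 times in treated Irf1-/- BMDCs. Il23r, the partner in the IL-23 receptor, had 5.66 FPKM in treated wild-type and 3.08 FPKM in treated Irf1-/- BMDCs, a log2 difference of -0.86 that was not called.

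Among the ligands, Il12a and Il12b, which encode the subunits of IL-12, were called lower in treated Irf1-/- BMDCs, with log2 differences of -1.07 and -1.56. The level of Il12b was 148 FPKM (114 to 182) in treated wild-type and 49.9 FPKM (38.6 to 61.3) in treated Irf1-/- BMDCs. In treated Irf3/7-/- BMDCs it had 1470 FPKM (1100 to 1850), and Il12a, Il12b and Il23a (the subunit specific to IL-23) were called higher than in wild type, with log2 differences of 2.50, 3.32 and 1.20. None of the signalling genes Jak2, Tyk2, Stat3 and Stat4 was called in either knockout against treated wild type. Over the 9 listed genes, without Il12rb1, 2 were called lower in treated Irf1-/- BMDCs, beside 4.91% of all genes, and none higher, with a median log2 difference of -0.59 beside 0.02 over all genes tested. In the response of wild-type BMDCs to c-di-GMP, 6 of the 9 were called higher, beside 10.5% of all genes. With c-di-GMP, 6 of the 9 were also called higher in Irf1-/- BMDCs and 6 in Irf3/7-/- BMDCs, beside 9.67% and 10.2% of all genes. The median log2 differences were 1.78 in wild type, 2.05 in Irf1-/- and 2.08 in Irf3/7-/- BMDCs.

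**Figure D4:**
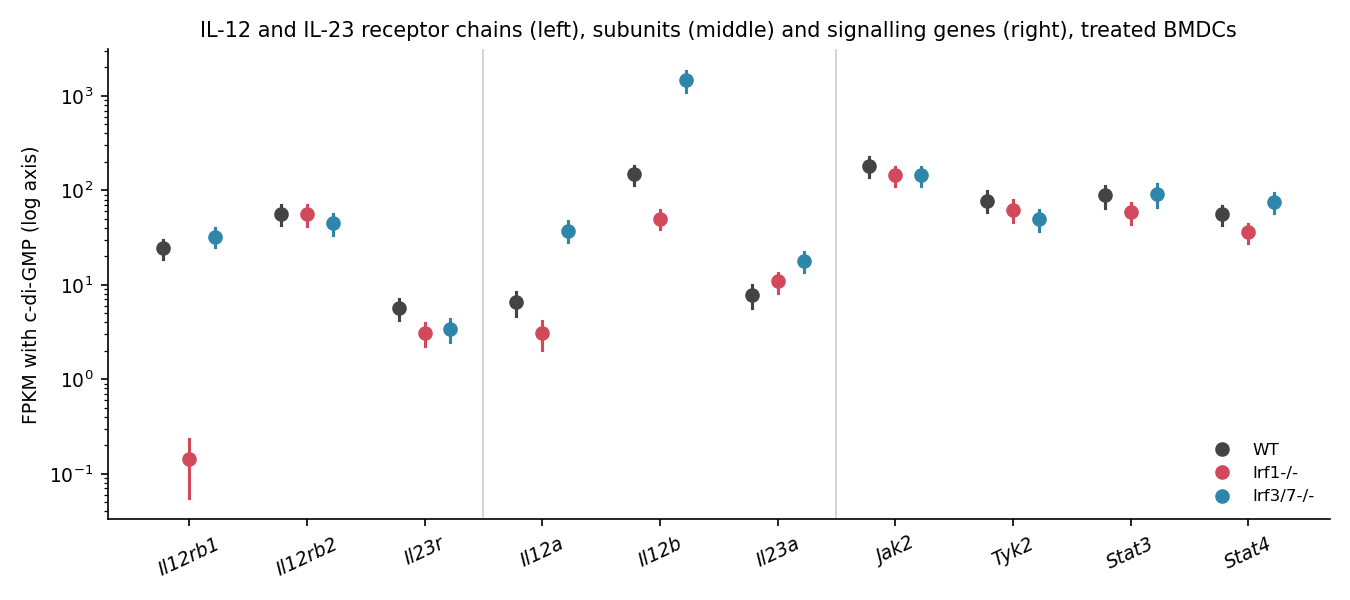
Level of the receptor chains, cytokine subunits and signalling genes of the IL-12 and IL-23 pathway in treated wild-type, Irf1-/- and Irf3/7-/- BMDCs, in FPKM on a log axis with the authors' intervals. Il12rb1 is at 0.144 FPKM in Irf1-/- BMDCs and at 24.3 and 32.2 FPKM in the others, while Il12rb2 lies between 44.9 and 56.3 FPKM in all 3.

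Ubd was set beside the genes that conjugate FAT10 or carry it to the proteasome. None of 7 listed genes was called in treated Irf1-/- against treated wild-type BMDCs, and their median log2 difference was 0.01. Uba6, the activating enzyme of FAT10, had 9.79 FPKM in treated wild-type and 18.1 FPKM in treated Irf1-/- BMDCs, a log2 difference of 0.88 that was not called. Nub1, which brings FAT10 to the proteasome, had 117 and 101 FPKM. In wild-type BMDCs, treatment raised Sqstm1, an autophagy receptor, with a log2 difference of 1.74, and Mad2l1, a spindle checkpoint gene whose product binds FAT10, was called lower at -1.56. Among 19 genes of ubiquitin-like modifiers and ubiquitin, Ubd had the lowest level in untreated wild-type BMDCs and ranked 9th in treated wild-type and 16th in treated Irf3/7-/- BMDCs. Isg15, another interferon-induced modifier, rose from 57.7 to 2260 FPKM in wild type and reached 2310 FPKM in treated Irf1-/- BMDCs.

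The family of Clic5 was also measured. Clic4, a widely expressed relative, had 205 FPKM (152 to 258) in untreated and 578 FPKM (426 to 728) in treated wild-type BMDCs and 669 FPKM (487 to 849) in treated Irf1-/- BMDCs. It was called higher after treatment in wild type and was not called in treated Irf1-/- against treated wild type, at a log2 difference of 0.21. Clic1 had 331 FPKM in both of these treated conditions, and Clic3 and Clic6 stayed below 1 FPKM in all 8. Clic4 was 37.1 times the level of Clic5 in treated wild-type BMDCs, so Clic5 was a minor member of the family per length even where it was highest. Of 6 genes of the actin linkage of CLIC5, 4 were tested in treated Irf1-/- against wild-type BMDCs and none was called: Ezr, Rdx, Msn and Tprn. Myo6, an actin motor, was called higher in treated Irf3/7-/- than in treated wild-type BMDCs, with 3.55 against 0.828 FPKM, and Ptprq was listed at 0 in all 8 conditions.

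Other genes known as IRF1 targets gave a scale for the 3 members. Of 14 listed genes, 8 were called lower in treated Irf1-/- against treated wild type, beside 4.91% of all genes, and the median log2 difference of the list was -1.07 beside 0.02 over all genes tested. The 8 were Ptgs2 (-6.61), Nos2 (-2.36), Gbp2 (-1.67), Ciita (-1.49), Casp1 (-1.19), Cxcl10 (-1.10), Cybb (-1.07) and Il12a (-1.07). In untreated Irf1-/- BMDCs, 10 of 12 tested were called lower, beside 3.52% of all genes, with a median of -1.34 beside 0.00. In the response of Irf1-/- BMDCs to c-di-GMP, 12 of 13 tested were called higher, beside 9.67% of all genes. Psmb9 and Tap1, antigen processing genes, were called lower untreated (-1.46 and -1.37) and not treated (-0.47 and -0.50). Irf1 itself had 149 and 245 FPKM in untreated and treated wild-type BMDCs and 25.9 and 116 FPKM in Irf1-/- BMDCs, and the table does not say which exons these fragments came from. Irf1 was also low in Tmem173-/- BMDCs, with 24.1 FPKM untreated and 23.3 FPKM treated. Tmem173 had 8.97 and 7.49 FPKM in its knockout against 103 and 118 FPKM in wild type. In untreated BMDCs labelled Irf3/7-/-, Irf7 had 1.07 FPKM against 15.2 FPKM and Irf3 7.74 FPKM against 19.9 FPKM in wild type, and the treated values are those given at the start.

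Genes within 250 kb of each member were read to see whether the members stood alone in their regions. Around Ubd, which lies among olfactory receptor and MHC class Ib genes, 6 of 26 neighbours were tested in treated Irf1-/- against wild-type BMDCs and none was called lower. H2-M3, an MHC class Ib gene 74.1 kb after Ubd, was called higher with c-di-GMP in wild type (22.6 to 51.0 FPKM) and lower in untreated Irf1-/- BMDCs (8.99 FPKM). Around Clic5, 2 of 4 tested neighbours were called lower in treated Irf1-/- BMDCs, beside 4.91% of all genes. Enpp4, 82.8 kb before Clic5, had 2.56 and 12.6 FPKM in untreated and treated wild-type and 0.489 and 5.07 FPKM in Irf1-/- BMDCs. Enpp5, at 102.0 kb, had 0.293 and 1.29 FPKM in wild-type and 0.0407 and 0.249 FPKM in Irf1-/- BMDCs. Both encode ectonucleotide pyrophosphatase/phosphodiesterase family members, and both rose with c-di-GMP in wild-type and Irf3/7-/- BMDCs. Enpp4 was also called higher with c-di-GMP in Irf1-/- BMDCs, where its log2 difference was 3.14, beside 2.25 in wild type and 1.78 in Irf3/7-/- BMDCs. Around Il12rb1, none of 18 tested neighbours was called lower or higher in treated Irf1-/- BMDCs.

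**Figure D5:**
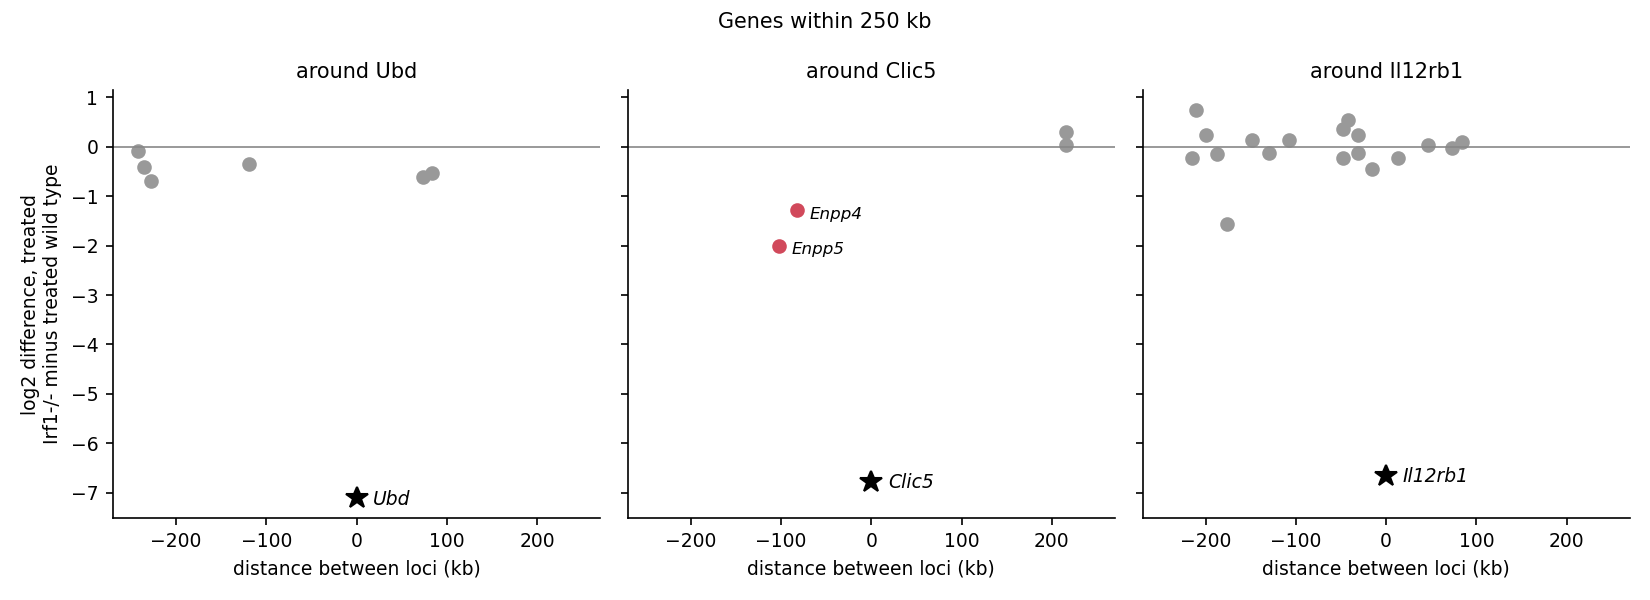
Log2 difference of treated Irf1-/- minus treated wild-type BMDCs for the tested genes within 250 kb of each member, by distance between the loci in kb. Stars are the members, red points were called lower and grey points were not called. Enpp5 and Enpp4, 102.0 and 82.8 kb before Clic5, are the neighbours called lower.

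Finally, the genes with the most similar pattern were sought by Pearson's r of log2(FPKM + 0.1) over the 8 conditions, among 7381 other genes with at least 10 FPKM in one condition. For Ubd they were Tap2 (0.982), H2-Oa (0.978), Psmb10 (0.976), Pla2g16 (0.975) and 4933412E12Rik (0.975). Tap2, a peptide transporter, and Psmb10, an immunoproteasome subunit, spanned 2.41 and 2.37 log2 units over the conditions, against 10.18 for Ubd. For Clic5 they were Ptgs2 (0.985), Slc31a1 (0.969), Crbn (0.967), Rapgef1 (0.965) and Gm15056 (0.962). Ptgs2 also had a similar span, 9.09 log2 units against 7.25 for Clic5, with 92.1 FPKM in treated wild-type, 0.843 FPKM in treated Irf1-/- and 125 FPKM in treated Irf3/7-/- BMDCs. For Il12rb1 they were Gm8221 (0.994), Cysltr2 (0.987), Gbp8 (0.980), Gzmg (0.977) and Prf1 (0.976); Gzmg and Prf1 encode proteins of cytotoxic granules. Among the members, r was 0.906 between Ubd and Clic5, 0.893 between Ubd and Il12rb1 and 0.837 between Clic5 and Il12rb1. Many other genes were more alike: for Ubd, Clic5 ranked 82nd and Il12rb1 111th. For Clic5, Ubd ranked 64th and Il12rb1 258th, and for Il12rb1, Ubd ranked 67th and Clic5 119th. The 8 points share genotypes, and those of treated wild-type and treated Irf1-/- BMDCs chose the members. With Spearman's rho none of the 5 genes listed for Clic5 was still among the first 5.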

How the data were processed

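RNA-seq libraries of polyadenylated RNA from 16 BMDC samples were made with a stranded kit. The authors ran Cuffdiff (version 1.06 in the submitters' processing notes) and deposited a gene table with 1 FPKM, the lower and upper bound of its interval and a status per condition, with the replicates combined. The aligner, the annotation and the strand setting of the Cuffdiff run are not given in the sources used here. A further 4 columns that match no sample label were not used. The number of reads of each sample is not known.

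Values were transformed as log2(FPKM + 0.1). In 12 comparisons, genes with status OK and a level of 1 FPKM or more in either condition were called at a fold change above 2 with non-overlapping intervals. No p-value was computed, since no replicate values were used. The calls were tested on simulated data with 200 changed genes. The simulated noise was as wide as the authors' intervals, and the changes were larger than the fold threshold, in genes above the 1 FPKM minimum. The simulation therefore cannot judge calls near the threshold, genes near 0 or spread beyond the intervals. The members, gene lists, motifs and comparisons were chosen with earlier results of these data known. Genes named were the members, the targeted genes, listed pathway and marker genes, neighbours within 250 kb, the 5 genes most alike in pattern per member, and the 2 next in rank. Enpp4, Enpp5 and H2-M3 were singled out among neighbours after their values were seen. A further motif search is not reported here. Levels under 3 steps of the bounds were taken as not distinguished from 0.

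As alternatives, the pseudocount was set to 1 or to 0.01 FPKM, and the others were no minimum, a minimum of 5 FPKM, a fold change above 4, median centring, fold change alone, and a z from the intervals at a Benjamini-Hochberg q of 0.05. The scripts ran under python 3.11.15 with matplotlib 3.10.9 for figures, pandas 2.3.3 and numpy 2.4.6 for tables, and statsmodels 0.14.6 and scipy 1.17.1 for the z.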

Additional observations from a re-analysis of the deposited data

How the results depend on the processing

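The 3 members in 12 comparisons gave 36 log2 differences, with 288 values under the 8 alternatives. Of these, 281 kept their call or lack of one, 3 lost the call and 4 gained it. Direction reversed in 0 of the values called in either setting. A change of direction in a value called in neither was not counted. With a fold change above 4, Il12rb1 was no longer called with c-di-GMP in wild-type (1.33) or Irf3/7-/- (1.76) BMDCs. Without a minimum FPKM, 1 member, Ubd, was called higher with c-di-GMP in Irf1-/- BMDCs (2.01), and Clic5 was called lower without treatment in Irf1-/- than in wild-type (-1.45) or Irf3/7-/- (-1.44) BMDCs and in untreated Tmem173-/- than in wild-type BMDCs (-1.63). With at least 5 FPKM, 1 member, Il12rb1, was called lower in untreated Irf1-/- than in untreated Irf3/7-/- BMDCs, as Ubd (-3.88) then was not tested. These changes follow from the thresholds themselves.

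Of the 5 genes most like each member, a pseudocount of 1 FPKM kept 2 for Ubd and 3 for Clic5, and Spearman's rho kept 2 for Ubd, 0 for Clic5 and 2 for Il12rb1; the cause was not tested. The shorter IRF repeat, added after the promoters were read, matched 1 member promoter and the longer repeat 0.

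Counts over all genes moved by over 1.5 times in 51 of 192 cases. With a fold change above 4 in place of 2, the genes called higher with c-di-GMP fell from 1175 to 399 in wild-type, from 1080 to 420 in Irf1-/- and from 1149 to 362 in Irf3/7-/- BMDCs, and those called lower in treated knockouts against wild type from 1524 to 737 in Tmem173-/-, from 544 to 175 in Irf1-/- and from 301 to 80 in Irf3/7-/- BMDCs. In untreated BMDCs they fell from 661 to 279 in Tmem173-/- and from 388 to 153 in Irf1-/-, and in Irf1-/- against Irf3/7-/- from 744 to 284 treated and from 419 to 186 untreated. With at least 5 FPKM these counts were 183 for treated Irf3/7-/-, 421 and 253 for untreated Tmem173-/- and Irf1-/-, and 492 and 253 for Irf1-/- against Irf3/7-/-. In wild type the genes called lower with c-di-GMP fell from 1116 to 193 with a fold change above 4.

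No paired analysis was possible because the table holds 1 combined value per condition and no replicate columns. No replicate was left out in turn, for want of replicate columns. Depth limits the values under 3 steps, those of Ubd and Clic5 in Tmem173-/- and of Clic5 in untreated Irf1-/- BMDCs.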
